A study of Mus musculus with 16 samples.

Results

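Mouse pancreatic islets were examined for 45 genes of mitosis and of the G2/M transition, the step at which a cell that has copied its DNA enters division. The members were chosen by symbol, as genes whose products carry out or trigger mitosis, and were found through their Ensembl identifiers. This list and the other gene lists were made with earlier results of these data known. All 45 were among the 52636 genes of the table, and all 45 were among the 18587 genes that passed the filter on low counts and were tested. They lie on 18 chromosomes.

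Islets are the endocrine clusters of the pancreas, made up mostly of insulin-secreting beta cells. They came from male C57BL/6JRj mice of 12 weeks (the study's methods give the strain as C57BL/6NRj), and 500 islets were cultured per condition for 10 days in medium with human serum and antibiotics, with a change of medium at day 5. Control islets received no addition, IL-1β islets received 50 pg/mL of this inflammatory cytokine, butyrate islets received 0.2 mM sodium butyrate, a short-chain fatty acid that gut microbes release, and the combination islets received both. Each of these 4 conditions had 4 replicate libraries, 16 in all, with 18635943 to 25955943 counts per library. The study's methods call the libraries biological replicates and say that islets for RNA were pooled over several mice. A library is therefore a pool and not a mouse, and the p-values measure the spread between these pools.

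Entry into mitosis is driven by the kinase Cdk1 with its partners cyclin A2, cyclin B1 and cyclin B2 (Ccna2, Ccnb1, Ccnb2). Polo and Aurora kinases then build the spindle, a checkpoint holds division until every kinetochore is attached, and the anaphase-promoting complex (APC/C) marks cyclin B and securin for destruction so that the sister chromatids part. The genes are switched on together late in the cell cycle. The MuvB complex, which binds a short promoter element called CHR, represses them in resting cells as part of the DREAM complex and activates them in dividing cells together with B-Myb and Foxm1, while NF-Y binds CCAAT boxes nearby. Beta cells of adult mice divide rarely, and such transcripts are therefore scarce in islets.

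The start regions of 4 members are shown because they set a pair of members with large falls under butyrate, Mki67 and Ube2c, beside a pair with smaller falls, Racgap1 and Kif23, which kept 78.2% and 45.5% of their control means. Each window runs from 250 bases before to 50 after the gene's start (RefSeq, build GRCm38.p6, gene strand), at chr7:135716330-135716629 on the minus strand for Mki67, chr2:164769679-164769978 on the plus strand for Ube2c, chr15:99651607-99651906 on the minus strand for Racgap1 and chr9:61946750-61947049 on the minus strand for Kif23. Capitals mark CHR elements (TTTGAA or TTCGAA, on either strand, so that TTCAAA is also marked) and CCAAT boxes (CCAAT on either strand, so that ATTGG is also marked). Abutting or overlapping matches run together.
Mki67: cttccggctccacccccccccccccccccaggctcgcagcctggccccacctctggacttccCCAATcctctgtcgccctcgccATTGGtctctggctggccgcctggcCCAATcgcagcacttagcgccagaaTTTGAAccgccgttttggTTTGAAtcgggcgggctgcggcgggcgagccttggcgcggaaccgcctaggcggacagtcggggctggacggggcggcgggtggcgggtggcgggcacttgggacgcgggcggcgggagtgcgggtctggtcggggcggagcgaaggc
Ube2c: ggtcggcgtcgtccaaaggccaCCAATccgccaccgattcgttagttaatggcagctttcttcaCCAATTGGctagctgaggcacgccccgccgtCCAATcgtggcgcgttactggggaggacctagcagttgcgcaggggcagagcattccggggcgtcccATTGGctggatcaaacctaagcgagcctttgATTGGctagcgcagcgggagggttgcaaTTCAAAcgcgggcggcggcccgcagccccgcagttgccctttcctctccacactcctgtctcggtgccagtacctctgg
Racgap1: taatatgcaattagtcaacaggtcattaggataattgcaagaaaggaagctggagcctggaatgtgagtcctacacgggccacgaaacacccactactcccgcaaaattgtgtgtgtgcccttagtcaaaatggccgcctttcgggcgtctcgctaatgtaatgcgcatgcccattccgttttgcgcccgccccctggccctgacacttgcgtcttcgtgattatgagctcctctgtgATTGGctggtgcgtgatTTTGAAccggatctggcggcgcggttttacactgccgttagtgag
Kif23: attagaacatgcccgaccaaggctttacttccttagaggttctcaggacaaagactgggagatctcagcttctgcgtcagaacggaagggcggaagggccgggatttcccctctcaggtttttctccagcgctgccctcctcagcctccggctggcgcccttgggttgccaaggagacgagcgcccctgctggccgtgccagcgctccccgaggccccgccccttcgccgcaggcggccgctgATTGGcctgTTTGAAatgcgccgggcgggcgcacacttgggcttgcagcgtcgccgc
Mki67, the proliferation marker Ki-67, held a CHR element at positions -116 and -98 from the start and 3 CCAAT boxes before them. Ube2c, the ubiquitin-conjugating enzyme of the APC/C, held a CHR element at -29 after 6 CCAAT boxes. Racgap1 and Kif23 form the centralspindlin complex of the cleavage furrow. Each held a single CCAAT box, at -12 and -7, followed by a CHR element at 6 and 3 bases after the start. Other members had other layouts. Cenpf and Cdca8 held a CHR element at 3 and 14 bases after the start and had log2 fold changes of -2.70 and -2.80 under butyrate. Ncapd2 held one at -123 and had -1.01. The place of the element was not tested against the size of the fall.

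A promoter window was at hand for 36 of the 45 members. Of these, 29 (80.6%) held a CHR element, against 21.7% of the 27025 genes of the promoter table and 16.8% of the 12545 tested genes with a window. A CCAAT box stood in 28 of 36 (77.8%, against 41.1% of the promoter table and 42.3% of tested genes), and both elements stood together in 25 (69.4%, against 8.61% and 6.90%). In the last 150 bases before the start, CHR elements were found in 12 of 36 (33.3%, against 11.2% of the promoter table and 7.97% of tested genes). E2F sites were searched on either strand as TTCCCGC and as TTGGCGC, and further as TTGCCGC and as TTCGCGC. They were found in 6 of 36 (16.7%, against 10.9% of the promoter table and 17.9% of tested genes), and a TATA box (TATAAA on either strand) in 1 of 36 (2.78%, against 15.7% and 9.53%). The members with a CHR element had a median log2 fold change of -2.21 under butyrate and the 7 without one had -2.58, so the members without the element did not fall less at the median. These are matches of letters, not measured binding. The members had 38 windows. In 29 of them, bases 6 to 35 after the start stood in a GENCODE transcript of the gene, and the others were kept. The Kif2c window, which held the TATA box and a CHR element, lies at chr4:117178723-117179022. That is inside the GENCODE bounds of the gene (117159639 to 117182639, minus strand).

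**Figure D1:**
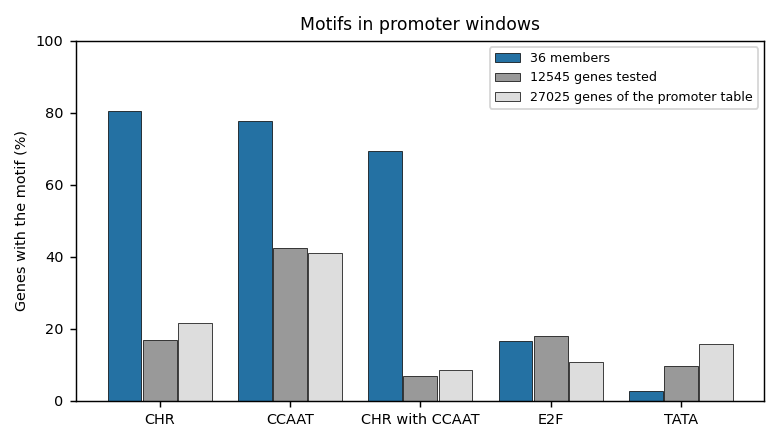
Share of genes (%) whose window from 250 bases before to 50 after the start holds a motif, for 36 members, for 12545 tested genes and for all 27025 genes of the promoter table. CHR elements with CCAAT boxes stand in 69.4% of the members, 6.90% of the tested genes and 8.61% of the promoter table, and E2F sites in 16.7%, 17.9% and 10.9%.

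Control libraries differed more for these genes than for others in the same range of level. Counts were scaled by TMM (a scaling factor per library that holds most genes level) to CPM, the reads of a gene per 1000000 scaled reads. The summed CPM of the 45 members was 281, 402, 555 and 527 in control replicates 1 to 4, 246, 323, 389 and 320 with IL-1β, 114, 125, 141 and 139 with butyrate and 112, 119, 149 and 135 with both. Control replicate 1 stood below the other control libraries for 45 of 45 members, and IL-1β replicate 1 was the lowest of its condition for 40 of 45. Replicate 1 was also the most frequent lowest library with both agents (25 of 45) and with butyrate (21 of 45). Its sum was the lowest in all 4 conditions. Control replicate 3 was the highest control library for 32 members and replicate 4 for the other 13. The median coefficient of variation among control libraries was 30.7% over the members, against 6.96% over 7882 tested genes in the same range of mean CPM. With butyrate the medians were 23.3% and 14.7%. The genes set beside the members shared only the range of means, not the level. Members had few counts with butyrate, such as 20, 20, 25 and 33 for Cdk1, and the part of counting error there was not tested. Counts and medians of contrasts with control are therefore also given without control replicate 1. That removal keeps replicate 1 of the other conditions, so values without replicate 1 of every condition are given as well. What sets replicate 1 apart was not tested.

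**Figure D2:**
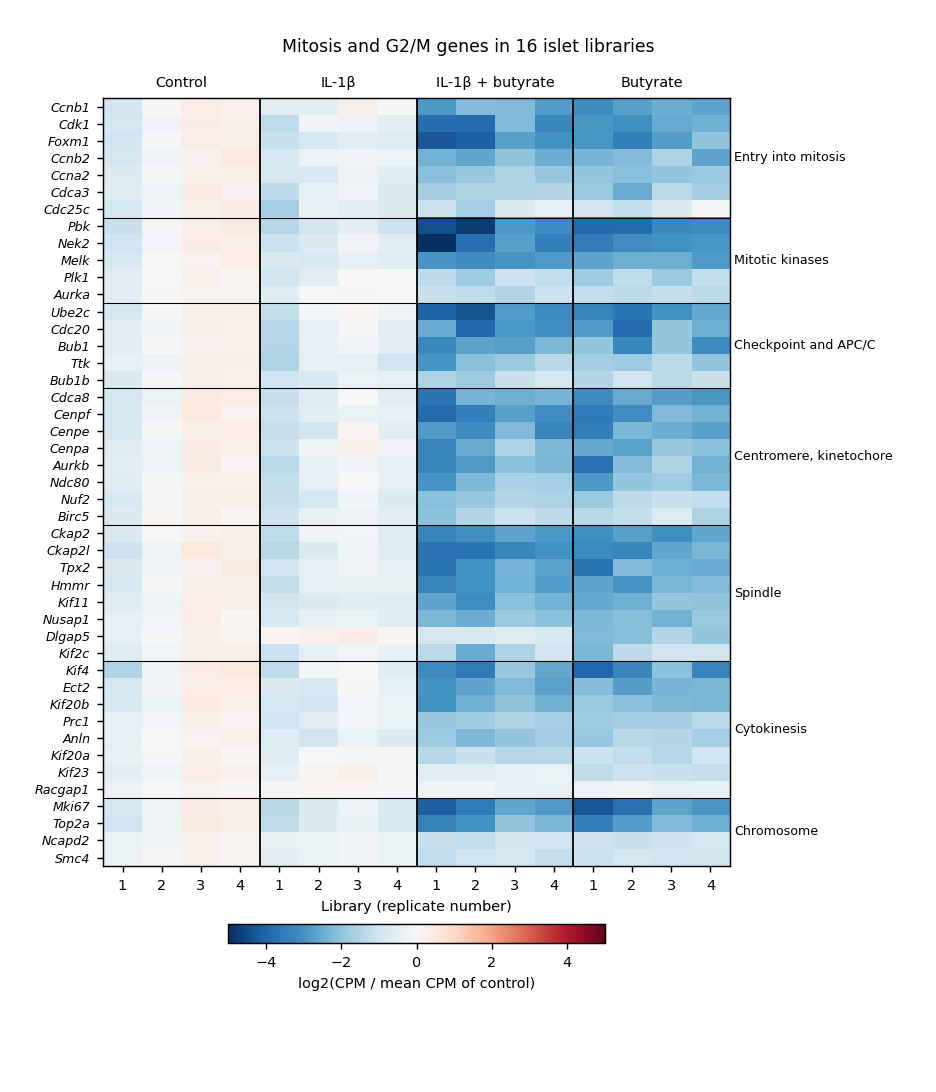
Level of the 45 members in each of the 16 libraries, as log2 of the CPM over the control mean of the gene, with genes in rows by role and ordered by their fall under butyrate, and libraries in columns by condition and replicate number. The 8 butyrate-exposed libraries are low for most rows, control replicate 1 is the lowest control library for all 45, and Racgap1, Cdc25c, Dlgap5 and Kif23 are pale in some or all butyrate-exposed columns.

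Butyrate alone lowered nearly the whole group. Against control, 44 of 45 members were lowered at an adjusted p under 0.01 and 0 were raised, where 11.4% of all tested genes were lowered and 8.53% raised. The median log2 fold change was -2.21, a 4.63-fold fall, against 0.007 over all tested genes. All 4 butyrate libraries lay below all 4 control libraries for 42 of 45 members, against 16.8% of all tested genes. The summed CPM was 441 ± 130 (SD, n = 4) in control and 130 ± 13 with butyrate, 29.4% of control. The fall was at least 2-fold for 42 members and at least 4-fold for 27. Members made up 9 of the 20 genes with the largest falls among the 2112 lowered genes, and 30 of the first 100. Since the list was made with earlier results known, these shares describe the group and do not test it. In bulk RNA, fewer dividing cells and less RNA per dividing cell cannot be told apart.

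The test was edgeR's quasi-likelihood test over all 16 libraries, with p-values adjusted by Benjamini-Hochberg over the 18587 genes. Errors of log2 fold changes are approximate standard errors. Each is the absolute log2 fold change divided by the square root of the test's F statistic. The replicate number was not in the model. Without control replicate 1 the same 44 members were lowered, with a median of -2.37. Without replicate 1 of every condition the same 44 were lowered, with a median of -2.29. The size of a fall did not go with the level of the gene. Across the 45 members, the log2 CPM per kilobase in control and the log2 fold change had a Pearson correlation of -0.045, over members that share their libraries.

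**Figure D3:**
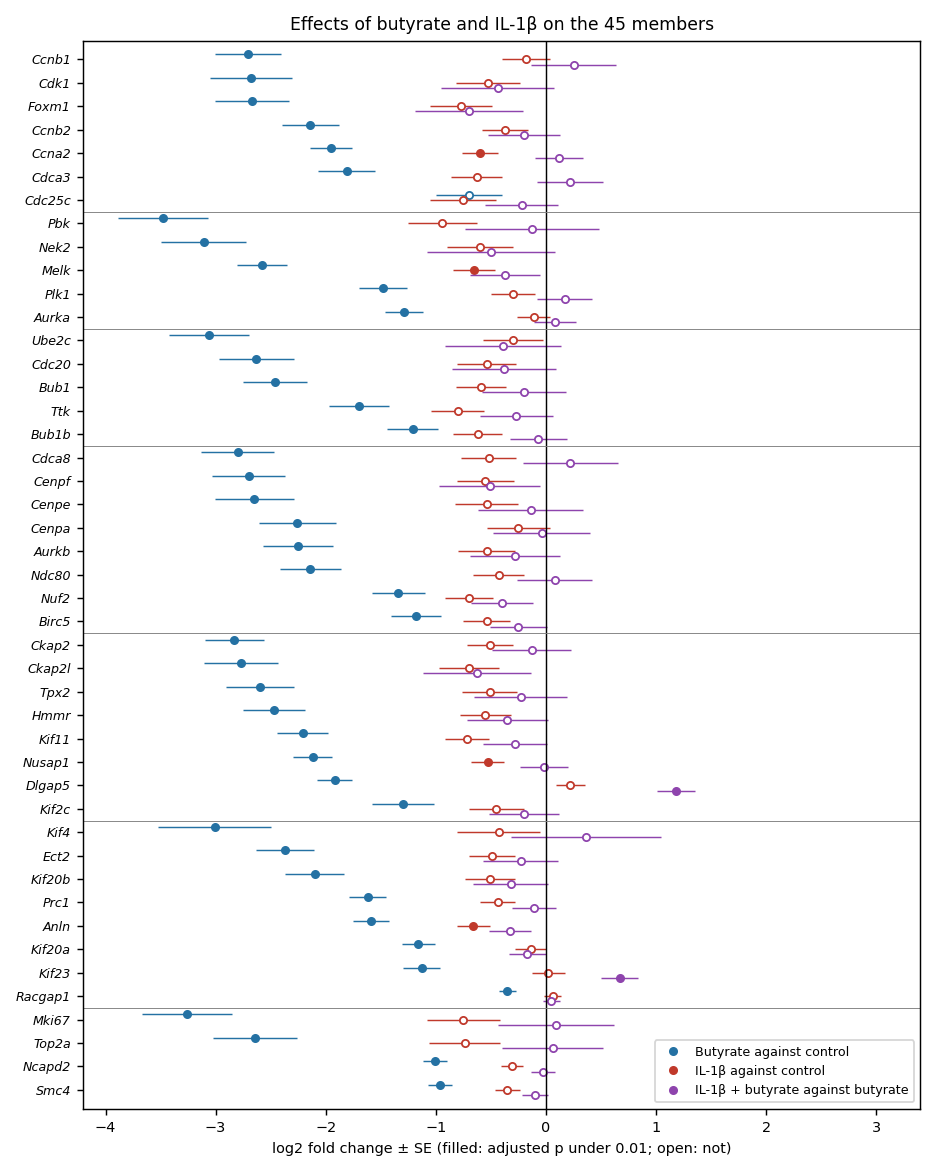
Log2 fold change with its approximate standard error for each of the 45 members, by role. The comparisons are butyrate against control, IL-1β against control, and the combination against butyrate. Filled points passed an adjusted p under 0.01. The butyrate points run from -3.48 to -0.35 with 44 of 45 filled, 4 IL-1β points are filled, and in the third comparison only Dlgap5 and Kif23 are filled, both above 0.

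Of the 7 genes of entry into mitosis, butyrate lowered 6, with a median of -2.14. Cdk1, the kinase that starts mitosis, was at 4.06, 6.55, 9.84 and 9.25 CPM in control, 3.05, 6.38, 6.12 and 4.98 with IL-1β, 1.00, 0.888, 1.31 and 1.42 with butyrate and 0.528, 0.509, 1.62 and 0.770 with both. Its butyrate libraries all lay below its control libraries, and the log2 fold change was -2.68 ± 0.37 (adjusted p = 6.6e-05). Ccnb1, which encodes cyclin B1, was at 1.35, 2.75, 3.39 and 3.08 CPM in control, 1.76, 1.85, 3.21 and 2.49 with IL-1β, 0.301, 0.400, 0.470 and 0.430 with butyrate and 0.365, 0.594, 0.569 and 0.385 with both. This was the largest fall of the entry genes, at -2.71 ± 0.30 (adjusted p = 9.2e-08), with no overlap. Foxm1, the transcription factor that activates G2/M genes, was at 4.15, 7.55, 10.4 and 9.80 CPM in control, 3.67, 4.38, 5.49 and 5.16 with IL-1β, 1.05, 0.755, 1.15 and 1.98 with butyrate and 0.406, 0.467, 1.23 and 1.01 with both. It fell by 2.67 ± 0.34 on the log2 scale (adjusted p = 3.4e-05).

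Cdc25c, a phosphatase that activates Cdk1, was the member not called. It was at 1.26, 2.08, 2.82 and 3.12 CPM in control, 0.724, 1.80, 1.55 and 1.41 with IL-1β, 1.16, 0.977, 1.41 and 2.15 with butyrate and 1.10, 0.721, 1.40 and 1.73 with both. Control and butyrate libraries overlapped, and the log2 fold change was -0.70 ± 0.30 (adjusted p = 0.09). The gene was scarce, and 12.7% of its exon bases are shared with an antisense gene. The library kit does not mark the strand, so reads from the antisense partner cannot be told apart.

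The 5 mitotic kinases all fell with butyrate, with a median of -2.58. Pbk, a kinase abundant in dividing cells, had the largest fall of all members. It was at 4.76, 9.63, 12.6 and 14.2 CPM in control, 3.88, 5.50, 7.15 and 5.02 with IL-1β, 0.703, 0.711, 1.10 and 1.16 with butyrate and 0.487, 0.382, 1.40 and 1.16 with both. Butyrate left 8.91% of its control mean, a log2 fold change of -3.48 ± 0.41 (adjusted p = 2.5e-05). Aurka, the Aurora kinase of the spindle poles, had the smallest fall of the kinases, at -1.29 ± 0.17 (adjusted p = 1.3e-06). It was at 3.31, 4.96, 5.4 and 5.39 CPM in control, 3.15, 4.87, 4.98 and 4.69 with IL-1β, 2.01, 1.87, 2.09 and 1.85 with butyrate and 2.23, 1.99, 1.75 and 2.26 with both. All 8 of its butyrate-exposed libraries lay below all 8 others.

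The 5 genes of the spindle checkpoint and of the APC/C all fell, with a median of -2.46. Ube2c was at 3.36, 5.84, 7.55 and 7.41 CPM in control, 2.64, 5.55, 6.38 and 5.02 with IL-1β, 0.603, 0.489, 0.732 and 1.03 with butyrate and 0.365, 0.297, 0.876 and 0.674 with both. Its log2 fold change was -3.06 ± 0.36 (adjusted p = 8.9e-06), although 22.8% of its exon bases are shared with an antisense gene whose reads cannot be told apart. Bub1b, the checkpoint kinase-like protein BubR1, fell least, from 4.20, 6.59, 8.65 and 8.39 CPM in control to 2.51, 3.51, 2.72 and 3.18 with butyrate. It was at 3.52, 4.09, 5.55 and 4.91 CPM with IL-1β and at 2.31, 2.04, 3.2 and 4.0 with both, where the groups overlapped. Its log2 fold change with butyrate alone was -1.21 ± 0.23 (adjusted p = 0.00058).

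The 8 genes of the centromere and kinetochore, the site where chromosomes attach to the spindle, all fell, with a median of -2.25. Cdca8, the borealin subunit of the chromosomal passenger complex, was at 1.96, 2.84, 4.83 and 4.67 CPM in control, 1.60, 2.34, 3.52 and 2.49 with IL-1β, 0.402, 0.622, 0.523 and 0.473 with butyrate and 0.284, 0.721, 0.657 and 0.722 with both. Birc5, the survivin subunit of the same complex, was at 3.08, 5.42, 6.26 and 5.35 CPM in control, 2.48, 3.89, 4.09 and 3.36 with IL-1β, 1.91, 2.18, 3.19 and 1.68 with butyrate and 1.22, 1.82, 2.41 and 2.02 with both. Partners of one complex thus stood at the opposite ends of this role. Cdca8 had a log2 fold change of -2.80 ± 0.33 (adjusted p = 9.1e-07) without overlap. Birc5 had -1.18 ± 0.23 (adjusted p = 0.00041), and butyrate replicate 3 overlapped with control replicate 1. Aurkb, the kinase of that complex, kept 21.0% of its control mean.

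The 8 spindle genes all fell, with a median of -2.34. Ckap2, a protein of spindle microtubules, was at 4.25, 7.17, 8.12 and 8.69 CPM in control, 2.90, 5.89, 6.48 and 4.66 with IL-1β, 0.854, 1.07, 0.836 and 1.16 with butyrate and 0.690, 0.849, 1.14 and 0.963 with both. Its log2 fold change of -2.83 ± 0.27 (adjusted p = 1.6e-07) was the largest of the role. Kif2c, a kinesin that takes microtubules apart at the kinetochore, had the smallest, at -1.30 ± 0.28 (adjusted p = 0.00073). It was at 1.40, 1.96, 2.72 and 2.65 CPM in control, 1.03, 1.66, 1.97 and 1.70 with IL-1β, 0.452, 0.888, 1.10 and 1.08 with butyrate and 0.853, 0.382, 0.745 and 1.11 with both. Its butyrate libraries lay below the control ones, while the combination and IL-1β libraries overlapped.

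Cytokinesis, the splitting of the cell body, had the widest range. All 8 genes were lowered, with a median of -1.61. Kif4, a chromosome-bound kinesin that shapes the central spindle, was at 1.40, 3.46, 5.30 and 5.61 CPM in control, 1.65, 3.55, 3.99 and 2.56 with IL-1β, 0.251, 0.400, 0.941 and 0.387 with butyrate and 0.447, 0.340, 1.05 and 0.674 with both. The log2 fold change was -3.01 ± 0.51 (adjusted p = 0.00045), with the highest coefficient of variation of the members in control (49.3%). An antisense gene covers 15.1% of its exon bases. Racgap1 (chr15:99620496-99651656, GENCODE M21, GRCm38) was at the other end, at 22, 27.5, 30.9 and 27.9 CPM in control, 28.2, 29.4, 29.7 and 25.9 with IL-1β, 21.9, 22.5, 20.1 and 20.2 with butyrate and 23.0, 23.8, 20.1 and 20.6 with both. Butyrate left 78.2% of its control mean, at -0.35 ± 0.08 (adjusted p = 0.0014), and control replicate 1 overlapped with the butyrate libraries.

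The 4 chromosome genes all fell, with a median of -1.82, but in pairs. Mki67 (chr7:135689784-135716361) was at 24.1, 38.7, 59.2 and 54.9 CPM in control, 16.7, 26.6, 36.2 and 26.1 with IL-1β, 2.26, 3.33, 7.11 and 5.85 with butyrate and 2.56, 3.82, 7.36 and 6.16 with both. Top2a, the topoisomerase that untangles sister chromatids, was at 22.4, 38.9, 60.7 and 56.5 CPM in control, 18.4, 27.4, 34.9 and 25.9 with IL-1β, 4.12, 6.66, 9.61 and 8.22 with butyrate and 4.30, 5.47, 11.3 and 9.05 with both. No butyrate-exposed library of either gene reached its lowest control or IL-1β library. Mki67 kept 10.5% of its control mean, at -3.26 ± 0.41 (adjusted p = 5.6e-05), and Top2a kept 16%, at -2.64 ± 0.38 (adjusted p = 0.00018).

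Smc4 and Ncapd2, subunits of the condensin complexes that compact chromosomes, fell far less. Smc4 was at 30.6, 36.2, 45.6 and 42.3 CPM in control, 26.3, 30.6, 33.7 and 30.5 with IL-1β, 18.2, 21.0, 19.7 and 20.7 with butyrate and 16.4, 19.3, 21.1 and 17.4 with both. The condensin genes kept 51.5% (Smc4) and 49.6% (Ncapd2) of their control means, at -0.96 ± 0.11 (adjusted p = 5.6e-06) and -1.01 ± 0.11 (adjusted p = 1e-06), without overlap. Per kilobase of exon, Smc4 had the highest control level of the members (7.43 CPM per kb), ahead of Pbk (5.75), Ncapd2 (5.61) and Top2a (4.95). That order was for the union of exons. By the longest transcript Smc4 was again first (8.96), and Top2a (8.54), Ncapd2 (7.6), Racgap1 (6.05) and Pbk (5.99) came next.

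IL-1β alone lowered 4 of 45 members against control, where 6.59% of all tested genes were lowered and 11.2% raised. They were Anln, the furrow scaffold anillin, at -0.66 ± 0.15 (adjusted p = 0.0011), Ccna2 at -0.60 ± 0.16 (adjusted p = 0.0082), Nusap1, a microtubule bundling protein, at -0.53 ± 0.15 (adjusted p = 0.0082) and the kinase Melk at -0.65 ± 0.19 (adjusted p = 0.0099). In edgeR 0 members were raised, and the 24 members at an unadjusted p under 0.05 were all on the low side. DESeq2 also raised 0, and of the 4 members that it lowered 2 were the same. The log2 fold change was below 0 for 42 of 45 members, against 54.9% of all tested genes, with a median of -0.53 against -0.025. The exceptions were Dlgap5 (0.22 ± 0.13, adjusted p = 0.21), Racgap1 (0.06 ± 0.078, adjusted p = 0.63) and Kif23 (0.02 ± 0.15, adjusted p = 0.95).

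Overlap was the rule in this comparison. Ttk, the checkpoint kinase Mps1, was the only member whose IL-1β libraries (0.879, 1.85, 1.81 and 1.26 CPM) all lay below its control libraries (1.87, 2.04, 3.11 and 3.04 CPM), where 10.7% of all tested genes did so. Its log2 fold change was -0.80 ± 0.24 (adjusted p = 0.014). The summed CPM was 320 ± 58 with IL-1β, 72.4% of control. The count rested on control replicate 1: without it 20 members were lowered, the same 4 among them, with a median of -0.71. Without any other single library the count was 1 to 4, and without the filter on low counts it was 17. Leaving out replicate 1 of every condition, an alternative chosen after seeing the data, also gave 20, with a median of -0.57. Without IL-1β replicate 1 alone, the median was -0.38. With the replicate number as a block in the model, the count was 33.

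In the presence of IL-1β, butyrate lowered most of the members again. In the combination against IL-1β, 41 of 45 members were lowered and 0 were raised, where 11.1% of all tested genes were lowered and 8.41% raised. The median was -1.91, against 0.012 over all tested genes. The largest fall was that of Ube2c, at -3.15 ± 0.38 (adjusted p = 1.3e-05). The 4 members not called were Cdca3, a trigger of mitotic entry, at -0.96 ± 0.26 (adjusted p = 0.011), Bub1b at -0.66 ± 0.24 (adjusted p = 0.046), Kif23 at -0.48 ± 0.16 (adjusted p = 0.022) and Cdc25c at -0.17 ± 0.33 (adjusted p = 0.75). Against control, the combination lowered 43 of 45 members, all but Cdc25c and Kif23, where 14.8% of all tested genes were lowered. Without control replicate 1 it lowered 45 of 45, with Cdc25c and Kif23 among them and a median of -2.60. Without replicate 1 of every condition it also lowered 45 of 45, with a median of -2.47. Its summed CPM was 129 ± 17, 29.2% of control and level with that of butyrate alone.

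The butyrate effects without and with IL-1β come from separate libraries. Across the 45 members they had a Pearson correlation of 0.939 and a Spearman correlation of 0.93, as a description over genes that share the libraries of each condition. The fall was smaller with IL-1β for 42 of 45 members, by a median of 0.30 on the log2 scale, against 0.009 over all tested genes. The median over the members was 0.46 without control replicate 1 and 0.19 without IL-1β replicate 1. Members share their libraries, so the 42 are not separate observations. By arithmetic, the same difference separates the IL-1β effects with and without butyrate. That difference was not called for any member in the test of the difference itself: 0 members passed, where 0.0968% of all tested genes did, 4 members had an unadjusted p under 0.05, and DESeq2 called 1 (Dlgap5). For Mki67 the difference was 0.83 ± 0.62 (adjusted p = 0.89). With the replicate number as a block in the model, Mki67 and Dlgap5 were called.

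**Figure D4:**
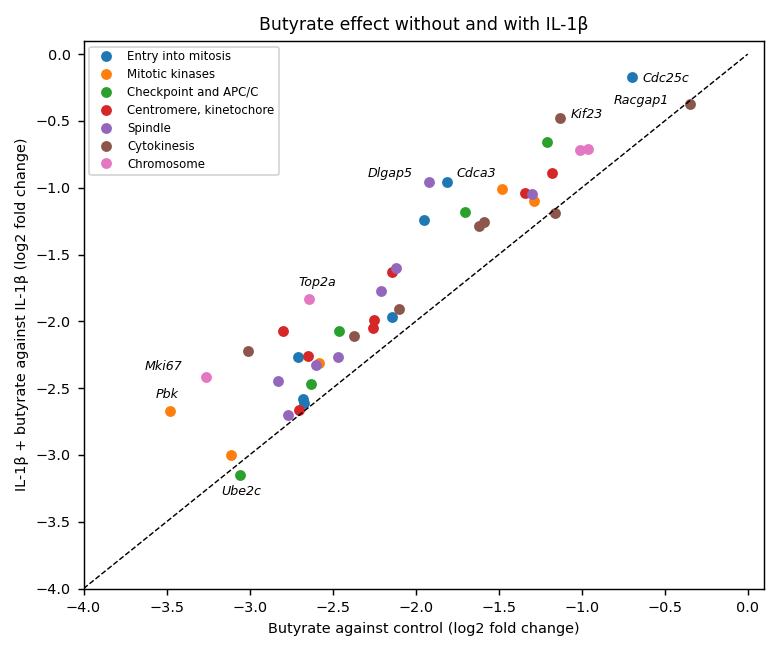
Log2 fold change of the 45 members for butyrate against control (horizontal) and for the combination against IL-1β (vertical), coloured by role, with the line of equal effects. The points run along the line from Ube2c and Pbk to Racgap1 and Cdc25c, 42 of 45 lie above it, and Dlgap5 lies the farthest above it (by 0.96).

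Adding IL-1β to butyrate raised 2 members, Dlgap5 and Kif23, and lowered 0, where 9.92% of all tested genes were raised and 4.86% lowered. These were also the members at an unadjusted p under 0.05 in edgeR. The median over the members was -0.17, against -0.009 over all tested genes. Mki67 differed by 0.09 ± 0.53 (adjusted p = 0.94) between combination and butyrate and Top2a by 0.06 ± 0.46 (adjusted p = 0.95), errors wide enough to hide a sizeable change. Racgap1 was measured more tightly, at 0.05 ± 0.081 (adjusted p = 0.76).

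Dlgap5 (chr14:47387779-47418407) encodes HURP, a protein that stabilises spindle microtubules near the chromosomes. It was at 6.35, 8.13, 10.7 and 9.84 CPM in control, 9.41, 10.4, 11.6 and 9.64 with IL-1β, 1.91, 2.00, 3.14 and 2.28 with butyrate and 4.87, 5.22, 5.74 and 5.2 with both. The combination lay between its neighbours without overlap, above every butyrate library and below every control and IL-1β library. The log2 fold change was -1.92 ± 0.16 for butyrate against control (adjusted p = 1.2e-09), -0.96 ± 0.13 for the combination against IL-1β (adjusted p = 5e-06) and 1.18 ± 0.17 for the combination against butyrate (adjusted p = 5.3e-06). The difference between the butyrate effects was 0.96 ± 0.21 (adjusted p = 0.053). Without control replicate 1 it was 1.08 (adjusted p = 0.0032). Of 26 alternatives, 4 called this difference, that removal among them, and 22 did not. The highest adjusted p was 0.49, without replicate 4 of every condition.

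Kif23 (chr9:61915905-61946774), the kinesin partner of Racgap1 in centralspindlin, was at 4.39, 5.50, 8.12 and 7.32 CPM in control, 4.81, 6.91, 7.88 and 6.06 with IL-1β, 2.66, 3.06, 2.93 and 2.88 with butyrate and 4.39, 4.29, 4.73 and 5.01 with both. Butyrate libraries lay below all others, and the combination overlapped with the lowest control and IL-1β libraries. The log2 fold change was -1.13 ± 0.17 for butyrate (adjusted p = 1.4e-05) and 0.67 ± 0.17 for the combination against butyrate (adjusted p = 0.0061). The second call was lost when any one of the 8 libraries compared was left out (adjusted p from 0.011 to 0.024), with log2 fold changes of 0.63 to 0.70.

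Each of these genes has a neighbour within 20000 bases that IL-1β raised, a detail looked up after the values were seen. IL-1β raised 11.2% of all tested genes, and the neighbours of the other members were not looked up. Lgals3, which encodes galectin-3, lies 1618 bases downstream of Dlgap5 on the other strand and went from 1.80 to 5.94 CPM with IL-1β (log2 fold change 1.71, adjusted p = 0.0015). Paqr5 lies 6706 bases upstream of Kif23 on the same strand and went from 0.678 to 1.69 CPM (1.31, adjusted p = 0.00036). In the combination against butyrate Lgals3 was at 0.84 (adjusted p = 0.13) and Paqr5 at 1.08 (adjusted p = 0.0048). Mean CPM with butyrate and with both was 1.77 and 3.22 for Lgals3, beside 2.33 and 5.26 for Dlgap5. It was 0.606 and 1.31 for Paqr5, beside 2.88 and 4.6 for Kif23. The nearer neighbour of Kif23 is Rplp1, a ribosomal protein gene 1362 bases downstream on the same strand, at 196 CPM in control and 199 with IL-1β (0.02, adjusted p = 0.89). Rplp1 differed by -0.01 in the combination against butyrate (adjusted p = 0.96). The part of these neighbours in the counts of Dlgap5 and Kif23 was not tested.

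**Figure D5:**
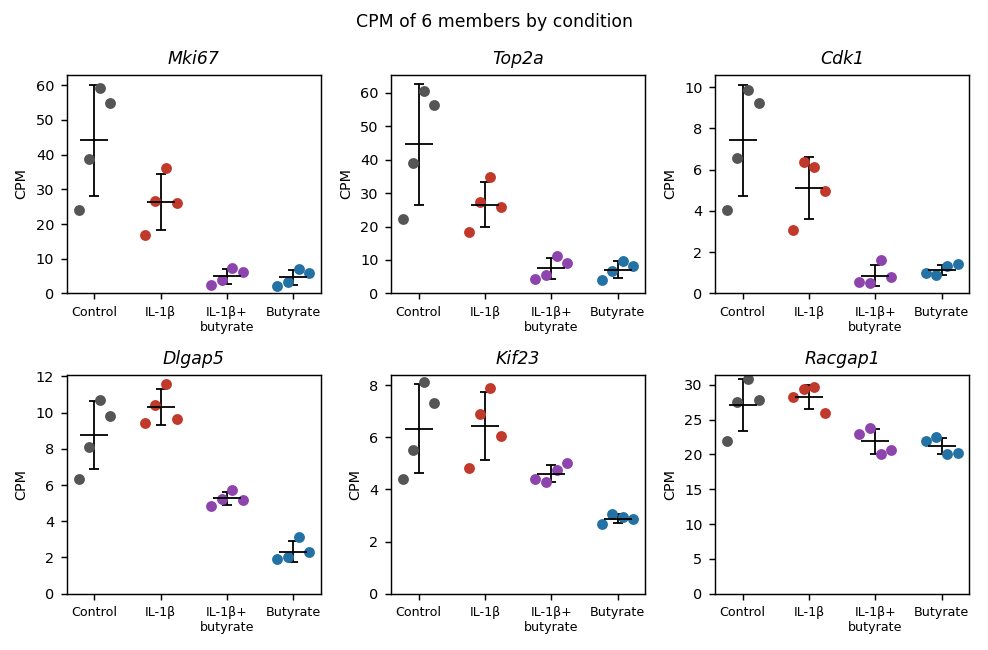
CPM of 6 members in each library, by condition, with replicates 1 to 4 from left to right and the mean ± SD as black lines. Mki67, Top2a and Cdk1 are at about the same low level in both butyrate-exposed conditions, Dlgap5 and Kif23 are higher in the combination than with butyrate alone, and Racgap1 stays between 20.1 and 30.9 CPM throughout.

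Most other mitosis genes were lowered too. Of 64 further mitosis genes, butyrate lowered 54 and raised 1, with a median of -1.22, where 11.4% of all tested genes were lowered and 8.53% raised. The largest fall was that of Troap, a spindle-associated protein, from 2.56 ± 1.1 to 0.236 ± 0.033 CPM (-3.41 ± 0.39, adjusted p = 3.7e-07). The gene that rose was Pttg1, which encodes securin, the inhibitor that the APC/C removes at anaphase. It went from 6.97 ± 0.17 CPM in control to 10.5 ± 0.73 with butyrate (0.59 ± 0.091, adjusted p = 1.4e-05). It was higher still with both, at 13.3 CPM (0.34 ± 0.084 against butyrate, adjusted p = 0.0032).

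IL-1β lowered 4 of the same 64 genes and raised 1, where 6.59% of all tested genes were lowered and 11.2% raised. The gene raised was Cdc25b, a phosphatase that starts Cdk1 at the centrosome. Cdc25b was at 14.1 CPM in control, 22.8 with IL-1β, 9.68 with butyrate and 15.5 with both, so that it rose with IL-1β (0.70 ± 0.075, adjusted p = 3.1e-08) and fell with butyrate (-0.54 ± 0.082, adjusted p = 1.2e-05). The largest fall with IL-1β was that of Esco2, which ties sister chromatids together (-0.95 ± 0.21, adjusted p = 0.001). In the combination against butyrate, 3 of the 64 rose and 0 fell, where 9.92% of all tested genes were raised and 4.86% lowered. They were Cdc25b, Pttg1 and the kinetochore gene Spc25 (0.61 ± 0.13, adjusted p = 0.0044).

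Of 17 genes of the APC/C core and its regulators, butyrate lowered 4 (Anapc13, Cdc23, Fbxo5 and Ube2s) and raised 0, where 11.4% of all tested genes were lowered and 8.53% raised, with a median of -0.10. Fbxo5, the APC/C inhibitor Emi1, had the largest fall (-0.90 ± 0.16, adjusted p = 9.8e-05). IL-1β raised 1 of the 17, Fzr1, which encodes the activator Cdh1, and lowered 1, Cdc23, where 11.2% of all tested genes were raised and 6.59% lowered.

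Among 25 genes that govern the programme (E2F factors, pocket proteins, MuvB and NF-Y subunits, B-Myb and its relatives, p53 and p21), butyrate lowered 12 and raised 0, against the same shares of all tested genes. The largest fall was that of the repressor E2f8 (-2.06 ± 0.26, adjusted p = 9e-07), and its relative E2f7 fell by 1.74 ± 0.20 on the log2 scale (adjusted p = 2.5e-07). E2f7 was higher with both agents than with butyrate alone (0.89 ± 0.22, adjusted p = 0.0031). Mybl2, which encodes B-Myb, was at 2.25 ± 0.15 CPM in control and 2.59 ± 0.55 with butyrate (0.20 ± 0.20, adjusted p = 0.48). Cdkn1a, the cyclin-dependent kinase inhibitor p21, fell from 63.9 ± 4.1 to 38.2 ± 3.0 CPM (-0.74 ± 0.079, adjusted p = 4.4e-07). E2f7, Mybl2 and Cdkn1a were singled out after their values were seen.

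Of 22 DNA replication genes, which act in S phase before mitosis, butyrate lowered 20 and raised 0, with a median of -0.86. Over all tested genes 11.4% were lowered and 8.53% raised. The licensing factor Cdc6 fell most (-2.29 ± 0.24, adjusted p = 7.3e-08). IL-1β lowered 10 of the 22, where 6.59% of all tested genes were lowered, Cdc6 among them (-0.91 ± 0.20, adjusted p = 0.0014). In the combination against butyrate the list had 1 raised gene, Ccne1, which encodes cyclin E1 (0.80 ± 0.15, adjusted p = 0.00013), where 9.92% of all tested genes were raised.

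Markers of the islet cell types were checked beside these results. The summed CPM of 8 beta cell markers was 214000 to 237000 in control, 223000 to 262000 with butyrate, 138000 to 179000 with IL-1β and 138000 to 170000 with both, and 0 of the 8 were at 0. The summed CPM of 6 macrophage markers was 125 to 139 in control, 82.2 to 103 with butyrate, 164 to 195 with IL-1β and 89.8 to 117 with both. Butyrate alone lowered 1 of the 6, C1qa, with a median log2 fold change over the 6 of -0.64. IL-1β raised 5 (Adgre1, C1qb, Cd68, Csf1r and Lyz2) and lowered C1qa, with a median of 2.22. That median is a larger rise than the sums show. A sum follows its most abundant genes and does not measure the number of macrophages. In the combination against IL-1β, where 41 members were lowered, 4 of the 6 macrophage markers were lowered too (Adgre1, C1qa, C1qb and Cd68), with a median over the 6 of -0.84.

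The 4 T cell markers summed to at most 2.59 CPM and the 3 B cell markers to at most 2.14 CPM in any library. Duct cell markers (5 genes) summed to 452 to 484 CPM in control 427 to 483 with butyrate, 631 to 736 with IL-1β and 633 to 932 with both. Butyrate called 0 of the duct markers and IL-1β raised 3 (Epcam, Krt7 and Spp1). The 3 delta cell markers summed to 1690 to 1990 CPM in control, 2390 to 2770 with butyrate, 1740 to 2220 with IL-1β and 2620 to 3180 with both, and Sst was the one that butyrate raised. The 2 PP cell markers summed to 2230 to 3050 CPM in control, 3190 to 3920 with butyrate, 1820 to 2390 with IL-1β and 2160 to 2850 with both, with 0 called by butyrate. The 5 acinar markers summed to 18.7 to 30 CPM in control, 13.4 to 19.6 with butyrate, 18.9 to 26.4 with IL-1β and 8.43 to 15.7 with both. Which cells carried the mitotic transcripts cannot be told apart in bulk RNA, and the part of the macrophage, duct, delta, PP and acinar markers in these results was not tested.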

How the data were processed

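RNA from 16 islet libraries was sequenced single-end. Per the labels and the study's methods, reads were mapped with STAR 2.5.3a to GRCm38 (mm10), and the authors deposited whole-number read counts per gene, without normalization. The annotation release, the counting tool and its strand setting are not given in the sources used here. Of the 52636 genes listed, 10560 were at 0 throughout. GENCODE M21 held 52489 of the identifiers and gave symbols, exons and overlaps. No deposited column belonged to another series.

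In R 4.3.3, edgeR 4.0.16 filtered genes (filterByExpr, 4 conditions), scaled by TMM and fitted a robust quasi-likelihood model with the 4 conditions to all 16 libraries. P-values were adjusted by Benjamini-Hochberg over the 18587 tested genes, and a gene was called at an adjusted p under 0.01, the threshold in the study's methods. The 6 contrasts share libraries. DESeq2 1.42.0 and other scalings and filters were alternatives, and the scripts were tested on simulated data. Levels per kilobase used the union of exons, and motifs were counted in RefSeq windows of GRCm38.p6.

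The members, the lists and the choice of alternatives were made with earlier results of these data known. Values in every library are given for Mki67, Top2a, Cdk1, Ccnb1 and Foxm1, for the members with the largest and smallest butyrate effect in each of 7 roles, and for members not lowered by butyrate or raised in any contrast. Genes of other lists are named for the largest called change or a change against the list. Replicates differed by more than counting error (chi-square of a pair divided by the number of genes, 1.72 to 13.5), so no library was a copy of another. Reads carried no molecular identifiers.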

Additional observations from a re-analysis of the deposited data

Results flagged for a closer look

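In each of 80 groups of 4 libraries (19 named members and the summed CPM, in 4 conditions), the gap of the highest or lowest library to the next was compared with the range of the group, and chance passes the 95% limit of Dixon's test in about 1 of 20 groups. It was passed by 2. Aurka was at 3.15 CPM in IL-1β replicate 1 and at 4.69 to 4.98 CPM in the other IL-1β libraries. Cdca8 was at 0.284 CPM in replicate 1 of the combination and at 0.657 to 0.722 CPM in the others.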

How the results depend on the processing

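Under the alternatives run, 0 of the named members' calls changed sign. Of 114 pairs of named member and contrast, 82 kept their side of the threshold under every alternative run. Butyrate against control lowered 41 to 44 members with libraries left out, and 44 or 45 under the other settings. With libraries left out, the combination against control lowered 41 to 45 members and the combination against IL-1β 29 to 44, and the combination against butyrate raised 1 or 2.

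IL-1β against control depended on the processing. Members lowered were 4, and 1 with library size as the only scaling, 17 without a filter, 1 with only the conditions compared, 12 at an adjusted p under 0.05, and 0 to 20 with libraries left out. Over all genes the 1224 lowered became 708 with library size, 1951 with the replicate block and 2128 at 0.05. The cause was not tested.

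At an adjusted p under 0.05 the combination against IL-1β lowered 3138 and raised 2457 genes. In the combination against butyrate, members raised fell to 1 with upper-quartile scaling, and all genes lowered were 1420 with upper-quartile scaling, 451 with library size (raised 3153), 1407 with the replicate block and 1556 at 0.05. In the difference of the butyrate effects, members raised were 1 with DESeq2, 1 without a filter and 0 or 1 with libraries left out. All genes lowered and raised there were 27 and 18 with DESeq2, 43 and 52 without a filter, 72 and 60 with the replicate block, and 20 and 19 at 0.05.

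Upper-quartile scaling turned the split of lowered and raised genes from 2112 and 1585 to 1566 and 2207 for butyrate against control, from 2066 and 1563 to 1566 and 2137 for the combination against IL-1β, and from 1224 and 2087 to 1800 and 1914 for IL-1β. With library size only, the combination against control went from 2751 and 2937 to 1884 and 3805, and IL-1β to 708 and 2798.

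The replicate numbers were not taken as pairs: 17 of 24 same-numbered pairs correlated above 0.1 (0.0535 to 0.397). With the replicate block, IL-1β lowered 33 members, 2 members (Dlgap5, Mki67) passed for the difference of the butyrate effects, and butyrate lowered 45. As a hint from the data, each of the 16 libraries was set against the libraries of each other condition, and in 40 of these 48 comparisons the best correlation was with the same number.

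With libraries left out, all genes lowered ranged over 621 to 1288 (raised 1585 to 2217) for IL-1β, 1321 to 2255 (1014 to 1660) for butyrate, 1959 to 2956 (2229 to 3015) for the combination against control, 1274 to 2282 (963 to 1573) against IL-1β, 536 to 1018 (1264 to 1898) against butyrate, and 0 to 14 (0 to 16) for the difference of the butyrate effects. These ranges include the removal of 1 replicate number from every condition, which was chosen after seeing the data. For that removal the lowered genes with IL-1β were 702, 637 and 621 without numbers 2, 3 and 4, the combination against IL-1β raised 1035 genes without number 2, and the combination against butyrate lowered 566 without number 4.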
